A study of Homo sapiens with 2 samples.

Results

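The teneurins, latrophilins and FLRT proteins are 3 families of cell surface proteins that bind each other across the gap between neighboring cells, and their 10 genes (*TENM1* to *TENM4*, *ADGRL1* to *ADGRL3* and *FLRT1* to *FLRT3*) were chosen by gene name among the 62704 genes listed in each of 2 pooled split-seq libraries of brain organoids. All 10 were present in both libraries under the same identifiers. Organoids were grown from H9, an established human embryonic stem cell line. The first library held single cells of control organoids (CO) at days 45, 55 and 70, of organoids that had been dissociated at day 45 and reaggregated (DISS) at days 48, 55 and 70, and of constrained organoids (CONS) at day 55, which had been freed of Matrigel at day 13 and embedded in 3% agarose. The second library held nuclei. By the methods it was a control with nuclei of day 45 CO, taken either from intact organoids or from suspensions of their cells, whereas its label names control, dissociated and embedded treatments. All organoids shared the H9 line and the same commercial organoid kit, so a single genotype was sampled.

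Split-seq writes a combination of well barcodes into the RNA of each fixed cell or nucleus. Every barcode of a library carried the same sample name, so that neither condition, day nor organoid is known per barcode, and each library counted as 1 sample with no test and no p-value. A barcode was retained if it had over 500 genes, over 1000 transcripts and a mitochondrial share of up to 20%. This left 20178 of 1303455 barcodes of the cells (median 2615 transcripts) and 14228 of 197446 of the nuclei (median 3890 transcripts). Of the kept barcode names, 99 occurred in both libraries; a name is a set of well positions. Barcodes over 20000 transcripts supplied 49.6% of all transcripts of the cells and 9.58% of those of the nuclei. RNA outside cells is part of these counts. From the choroid plexus transcript *TTR* in neurons, its share was put at 38.95% in the cells and 12.09% in the nuclei, and the level of each gene in barcodes of 10 to 100 transcripts is given as its background level. It is taken as the level of RNA outside cells alone, so a type under it can still hold transcripts of its own. Markers of radial glia, such as *SOX2* and *PAX6*, summed to 38.8 transcripts per 10000 in the cells and 42.5 in the nuclei, while those of microglia summed to 0.0727 and 0.0419.

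Teneurins are large single-pass proteins whose extracellular part ends in a barrel-like toxin-related fold. Latrophilins are adhesion G protein-coupled receptors that were found as receptors of black widow spider venom. They bind teneurins through a lectin domain and FLRT proteins through a neighboring olfactomedin domain, and FLRT proteins also bind UNC5 guidance receptors. These contacts are known from the developing cortex, where they steer the spread of migrating neurons, and from synapses.

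The 10 genes differ much in size, which bears on any comparison between them. On GRCh38 (GENCODE release 44), the teneurin genes lie at chrX:124375903-125204312 (*TENM1*, minus strand), chr5:166979029-168264157 (*TENM2*, plus strand), chr4:182143987-182803024 (*TENM3*, plus strand) and chr11:78652829-79441030 (*TENM4*, minus strand). The latrophilin genes lie at chr19:14147743-14206187 (*ADGRL1*, minus strand), chr1:81306147-81993932 (*ADGRL2*, plus strand) and chr4:61200326-62078335 (*ADGRL3*, plus strand). The FLRT genes lie at chr11:64035931-64119173 (*FLRT1*, plus strand), chr14:85530144-85654428 (*FLRT2*, plus strand) and chr20:14322985-14337614 (*FLRT3*, minus strand). Spans thus ran from 14630 bases for *FLRT3* to 1285129 bases for *TENM2*. *FLRT1* lies wholly inside *MACROD1* and *FLRT3* wholly inside *MACROD2*, each on the opposite strand, and *TENM1* overlaps the end of *STAG2*. Whether the counting used strand is not given in the sources used here, so transcripts of these pairs may be mixed.

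*TENM2* and *ADGRL3*, a teneurin and a latrophilin, had the pattern that recurred most clearly in both libraries, and *TENM4* was low in the choroid plexus, where they were high. The 250 bases before their RefSeq start sites (GRCh38.p14) are shown for that reason, 5′ to 3′ on the strand of the gene, with each CG in capitals. The sequences are from chr5:167072992-167073241 and chr5:167754679-167754928 on the plus strand (*TENM2*, which has 2 listed starts), chr4:61200076-61200325 on the plus strand (*ADGRL3*, the upstream of 2 listed starts) and chr11:79441031-79441280 on the minus strand (*TENM4*).
TENM2, upstream start: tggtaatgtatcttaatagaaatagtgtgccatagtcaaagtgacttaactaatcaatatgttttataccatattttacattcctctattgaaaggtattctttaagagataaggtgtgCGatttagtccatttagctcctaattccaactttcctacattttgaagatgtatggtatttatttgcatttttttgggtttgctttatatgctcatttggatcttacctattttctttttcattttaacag
TENM2, downstream start: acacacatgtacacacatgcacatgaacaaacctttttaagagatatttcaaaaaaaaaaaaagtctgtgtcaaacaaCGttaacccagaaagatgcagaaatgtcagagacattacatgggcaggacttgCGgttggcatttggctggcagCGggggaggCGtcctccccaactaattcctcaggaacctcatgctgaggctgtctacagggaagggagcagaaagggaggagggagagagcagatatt
ADGRL3, upstream start: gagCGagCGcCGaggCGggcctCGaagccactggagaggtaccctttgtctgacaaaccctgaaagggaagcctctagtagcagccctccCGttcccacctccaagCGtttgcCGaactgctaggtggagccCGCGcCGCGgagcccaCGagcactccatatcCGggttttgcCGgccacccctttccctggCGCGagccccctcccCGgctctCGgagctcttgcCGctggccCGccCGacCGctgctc
TENM4: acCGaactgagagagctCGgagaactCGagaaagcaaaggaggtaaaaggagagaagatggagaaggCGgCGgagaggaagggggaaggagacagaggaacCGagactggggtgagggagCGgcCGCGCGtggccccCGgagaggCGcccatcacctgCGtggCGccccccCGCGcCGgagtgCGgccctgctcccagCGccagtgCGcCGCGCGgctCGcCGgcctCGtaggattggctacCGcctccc
The upstream window of *TENM2* held 1 CG and its downstream window 4, against 23 in the window of *ADGRL3* shown, 16 in its downstream window (not shown, since it overlaps an annotated exon), 27 in that of *TENM4* and a median of 11 over 35116 windows of the same length. These windows are not at like positions. Both windows of *TENM2* lie inside its GENCODE span, and the bases before its GENCODE start were not among the windows. Those of *ADGRL3* and *TENM4* shown lie directly before the GENCODE start of the gene. TAATCC, the letters bound by OTX homeodomain proteins, and CAGATG, an E-box of proneural factors, were searched on both strands (GGATTA and CATCTG). None of the 4 windows held either, while 5.62% of all windows held the first and 12.1% the second.

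Types were named from markers on clusters that had been built without the 10 genes and their partners. The cells gave 2571 radial glia (RG)-like, 4219 dividing, 1210 intermediate progenitor-like, 1283 excitatory neuron-like, 150 Cajal-Retzius-like, 516 cortical hem-like and 1169 choroid plexus-like barcodes. The nuclei gave 3328 RG-like, 2155 dividing, 1165 excitatory neuron-like, 105 Cajal-Retzius-like and 383 choroid plexus-like barcodes. Radial glia are the stem cells of the cortex, Cajal-Retzius cells are early reelin-secreting neurons, the hem is a signaling center at the cortical edge, and the choroid plexus is an epithelium that secretes cerebrospinal fluid. Clusters with under 3 markers or with leading genes of another class stayed unnamed, and they held 44.9% of the cells and 49.8% of the nuclei. The names rest on their own markers: the 8 choroid plexus markers summed to 158.6 transcripts per 10000 in choroid plexus-like cells and 5.55 in RG-like cells, and the 10 excitatory neuron markers to 61.1 in neuron-like and 33.6 in RG-like cells. Neuronal markers were thus not near 0 in RG-like cells, and choroid plexus markers were at 37.0 in hem-like cells.

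**Figure D1:**
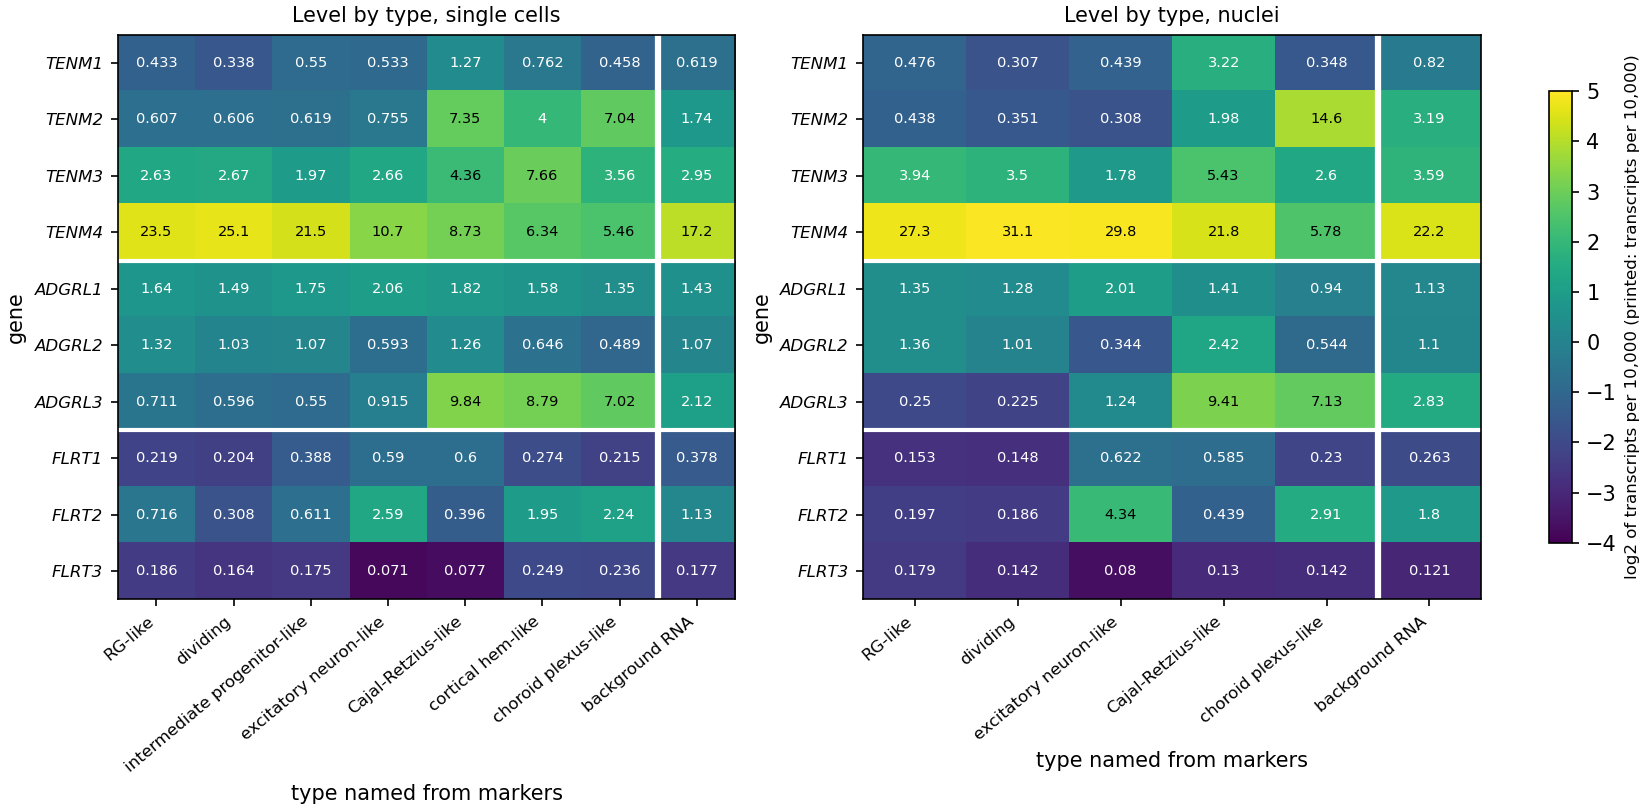
Level of each of the 10 genes (rows) in each type and in background RNA (last column), single cells on the left and nuclei on the right. Color shows the log2 of transcripts per 10000 and the printed number the transcripts per 10000. In cells *TENM2* and *ADGRL3* are bright in Cajal-Retzius-like (7.35 and 9.84) and choroid plexus-like barcodes (7.04 and 7.02), while in nuclei *TENM2* is bright in choroid plexus-like barcodes only (14.6). *TENM4* is lowest in choroid plexus-like barcodes (5.46 in cells, 5.78 in nuclei).

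Levels below are transcripts per 10000 transcripts of a type, with the 95% Poisson interval of the count, which covers counting error only, or the SD between sub-libraries. Sub-libraries hold different barcodes of a type, so this SD mixes technical spread with the sampling of barcodes. It does not measure spread between organoids. *TENM4* was abundant. Per kilobase of exon it ranked first of the 10 genes over all kept barcodes of either library (1.01 transcripts per 10000 and kilobase in cells, 1.43 in nuclei), ahead of *TENM3* (0.231 and 0.286). Per 100 kilobases of gene span, which would be the fitting measure if most transcripts were unspliced, *ADGRL1* came first in the cells (2.85 against 2.11 of *TENM4*) and *TENM4* in the nuclei (2.98 against 2.60 of *ADGRL1*). The place of *TENM4* thus depended on the measure in the cells only.

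Among the teneurins, *TENM4* was highest in the progenitor types of the cells. It reached 25.1 ± 2.34 in dividing (SD, n = 8 sub-libraries), 23.5 ± 1.69 in RG-like and 21.5 ± 1.45 in intermediate progenitor-like cells, and these neighbors differed by less than their summed SDs. The clusters within these types were uneven. Of the intermediate progenitor-like clusters, cluster 2, with 5 of 8 markers, had 28.0. Cluster 20, with 3 of 8 markers and *CA9* and *HIF1A-AS3* among its leading genes, had 19.0. It supplied 27448 of the 43063 *TENM4* counts of the type, so the summed level rests mostly on it. *ADGRL3* (1.07 and 0.348) and *FLRT2* (0.169 and 0.781) also differed between clusters 2 and 20. Of the dividing clusters, cluster 19 had 45.3 and the others 14.4 to 19.7, and of the RG-like clusters, cluster 3 had 34.1 and cluster 8, with 8 of 10 markers, 15.1, which is under the background level and within 2-fold of neuron-like cells. The next type, excitatory neuron-like cells at 10.7 ± 0.819, lay apart from them and under the background level of 17.2. Choroid plexus-like cells were lowest at 5.46 (95% interval 5.34 to 5.58), but hem-like (6.34) and Cajal-Retzius-like cells (8.73) followed without a gap beyond their spread. In the nuclei *TENM4* was again lowest in choroid plexus-like barcodes (5.78, interval 5.55 to 6.02), but neuron-like nuclei had 29.8 (29.3 to 30.3), between RG-like (27.3) and dividing nuclei (31.1). The highest *TENM4* levels of the nuclei were in the unnamed cluster 11, with the neuronal markers *NEUROD6*, *TBR1* and *BCL11B* (51.9), and cluster 16, with *EOMES* (38.0).

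*TENM2* was high in a different set of types. In the cells it was at 7.35 ± 2.69 in Cajal-Retzius-like, 7.04 ± 1.24 in choroid plexus-like and 4.00 ± 0.727 in hem-like barcodes, and between 0.606 and 0.755 in all other named types, under the background level of 1.74. First-round wells with at least 20 barcodes of the type varied widely. Hem-like wells ran from 0.417, under background, to 6.06 (6 wells, median 4.24). Cajal-Retzius-like wells ran from 2.67 to 11.9 (3 wells). In the nuclei it was at 14.6 (14.25 to 14.99) in choroid plexus-like barcodes, 1.98 (1.65 to 2.37) in Cajal-Retzius-like barcodes, which is under the background level of 3.19, and at most 0.438 in the other named types. In the named progenitor and excitatory neuron types *TENM2* was thus under background in either library. The unnamed cluster 5 of the nuclei, with 7 of 10 excitatory neuron markers, had 1.58, also under background but above the 0.308 of the named neuron cluster. The choroid plexus markers in hem-like cells are given above, and their part in the hem level was not tested.

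*TENM3* was highest in the hem of the cells. Its summed level was 7.66 ± 1.23 in hem-like cells. By the spread between sub-libraries alone this was apart from Cajal-Retzius-like (4.36 ± 1.17) and choroid plexus-like cells (3.56 ± 0.465), which did not differ beyond their spread. Over first-round wells with at least 20 barcodes of the type, the ranges overlapped. Hem-like wells had 2.24, 5.07 and 8.84 (lowest, median and highest of 6 wells), and choroid plexus-like wells ran from 1.61 to 5.25. The lowest Cajal-Retzius-like well had 3.05. Of the hem-like barcodes, 45.2% came from 1 well. The 4 remaining types lay between 1.97 and 2.67, under the background level of 2.95. Of the named types of the nuclei, where no cluster was named hem, *TENM3* was highest in Cajal-Retzius-like barcodes (5.43, interval 4.86 to 6.04) and lowest in neuron-like ones (1.78, interval 1.67 to 1.91). Its highest level over all clusters of the nuclei was 8.82, in the unnamed cluster 9, which passed the hem markers *RSPO2* and *LMX1A*. *TENM1*, the X-linked teneurin, was low and highest in Cajal-Retzius-like barcodes, at 1.27 (1.10 to 1.46) in cells, where the next type did not differ beyond its spread, and 3.22 (2.79 to 3.70) in nuclei. All other types lay at or under 0.762 in cells and 0.476 in nuclei.

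Among the latrophilins, *ADGRL1* varied least in the cells and *ADGRL3* most. *ADGRL1* ranged from 1.35 in choroid plexus-like to 2.06 in neuron-like cells, and no neighbors in that order differed beyond their spread. The nuclei gave the same ends, 0.940 and 2.01, with a spread known from only 2 sub-libraries. *ADGRL3* reached 9.84 ± 2.49 in Cajal-Retzius-like, 8.79 ± 1.28 in hem-like and 7.02 ± 1.37 in choroid plexus-like cells, which did not differ beyond their spread, and 0.550 to 0.915 elsewhere, under the background level of 2.12. In the nuclei it was at 9.41 (8.66 to 10.2) in Cajal-Retzius-like, 7.13 (6.87 to 7.39) in choroid plexus-like, 1.24 (1.14 to 1.34) in neuron-like and 0.25 (0.224 to 0.278) in RG-like barcodes. *ADGRL2* was highest in RG-like (1.32 ± 0.0992) and Cajal-Retzius-like cells (1.26 ± 0.520), and in Cajal-Retzius-like (2.42) and RG-like nuclei (1.36).

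Among the FLRT genes, *FLRT2* was highest in excitatory neuron-like and choroid plexus-like barcodes. It was at 2.59 ± 0.383 in neuron-like, 2.24 ± 0.294 in choroid plexus-like and 1.95 ± 0.490 in hem-like cells, which did not differ beyond their spread, and at 0.308 to 0.716 in the other types. In the nuclei it was at 4.34 (4.16 to 4.52) in neuron-like and 2.91 (2.75 to 3.08) in choroid plexus-like barcodes and at most 0.439 elsewhere. *FLRT1* was highest in the 2 neuronal types, with 0.600 in Cajal-Retzius-like and 0.590 in neuron-like cells, and 0.585 and 0.622 in nuclei. *FLRT3* was low in every named type, from 0.0709 to 0.249 in cells and 0.0795 to 0.179 in nuclei. Among these types its lowest level was in neuron-like barcodes of either library. Single clusters were higher, with 0.364 in intermediate progenitor-like cluster 2 of the cells. Unnamed clusters of the nuclei with neuronal markers went both ways. Cluster 11, with *NEUROD6*, *TBR1* and *BCL11B*, had 0.396, and cluster 5, with 7 of 10 excitatory neuron markers, had 0.0399.

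The design of the pooled libraries allowed types, but not conditions, to be compared, and the clearest comparison within the cortical lineage is that of excitatory neuron-like with RG-like barcodes. A gene was counted as higher or lower at a ratio of at least 2-fold. In the cells 2 of the 10 genes were higher (*FLRT1* and *FLRT2*; 6.36% of the 20198 genes compared were higher) and 3 lower (*TENM4*, *ADGRL2* and *FLRT3*; 6.78% of genes were lower). In the nuclei 3 were higher (*ADGRL3*, *FLRT1* and *FLRT2*; 8.9% of 14724 genes) and 3 lower (*TENM3*, *ADGRL2* and *FLRT3*; 20% of genes). The median log2 ratio of the 10 genes was 0.31 in cells and 0.00492 in nuclei, beside 0.0134 and -0.26 for all genes compared.

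At the settings given, though not under every alternative, *FLRT2* was the gene with the largest ratio. Over first-round wells with at least 20 barcodes of the type, whose condition is not known and several of which may hold the same organoid, its level in neuron-like cells was lowest at 1.36, in the median 2.67 and highest at 7.33 (21 wells), beside 0, 0.247 and 2.74 in RG-like cells (29 wells). Neuron-like cells were higher in 15 of 15 wells that held both types, although the ranges overlapped. The summed ratio was 3.62 (interval 3.41 to 3.83). Most of the RG-like *FLRT2* counts of the cells came from cluster 3, which had 1.37, while cluster 8 had 0.199. In the nuclei the wells of neuron-like barcodes ran from 2.84 over 4.12 to 6.52 and those of RG-like barcodes from 0.142 over 0.225 to 0.343, without overlap in 12 wells each, and the ratio was 22.0 (19.4 to 25.1). Ratios are of levels as measured. The RG-like level of *FLRT2* was under the background level in both libraries, at 0.716 beside 1.13 in cells and 0.197 beside 1.805 in nuclei. In the cells, cluster 3 was above that background level and cluster 8 under it. RNA outside cells may make up part of the RG-like level, and how much was not tested.

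*FLRT1* went the same way with lower levels. Its wells had 0.226, 0.661 and 1.13 (lowest, median, highest) in neuron-like and 0, 0.203 and 0.993 in RG-like cells, so that the ranges overlapped. Neuron-like cells were higher in 14 of 15 wells and the ratio was 2.70 (2.42 to 3.01). In nuclei neuron-like barcodes were higher in 12 of 12 wells and the ratio was 4.08 (3.42 to 4.88). The RG-like level of *FLRT1* was under the background level, at 0.219 beside 0.378 in cells and 0.153 beside 0.263 in nuclei. Over other settings the log2 ratio of *FLRT1* ran from 1.159 to 2.625 in cells and 1.536 to 2.289 in nuclei. *FLRT3* was lower in neuron-like barcodes, at a ratio of 0.382 (0.312 to 0.465) in cells and 0.444 (0.310 to 0.622) in nuclei, from only 136 and 40 counts. Over 16 other settings it stayed at 2-fold lower in 11 in cells (log2 ratio -5.82 to -0.66) and 15 in nuclei. Some of these settings leave a ratio unchanged by design.

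*ADGRL2* was lower in excitatory neuron-like than in RG-like barcodes. Wells of neuron-like cells had 0.131, 0.341 and 0.851 and wells of RG-like cells 0.613, 1.33 and 2.55, and the neuron-like value was lower in 15 of 15 wells with both. The ratio was 0.448 (0.418 to 0.480) in cells. Its log2 ran from -2.38 to -0.97 over 16 other settings, 14 of which kept it at 2-fold lower. The neuron-like level of *ADGRL2* was under the background level, at 0.593 beside 1.075 in cells and 0.344 beside 1.104 in nuclei. In the nuclei wells of neuron-like barcodes had 0, 0.302 and 0.523 beside 0.458, 1.26 and 1.86, and the ratio was 0.253 (0.215 to 0.296), lower in 12 of 12 wells. *ADGRL1* was higher in neuron-like barcodes in 15 of 15 and 11 of 12 wells, but by less than 2-fold (ratios 1.26 and 1.48).

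*ADGRL3*, *TENM3* and *TENM4* had unlike ratios in the 2 libraries. *ADGRL3* had a ratio of 4.95 (4.33 to 5.66) in nuclei and was higher in neuron-like nuclei in 12 of 12 wells (0.538, 1.07 and 2.09 beside 0, 0.229 and 0.815), while the ratio in cells was 1.29 (1.20 to 1.38). Both types lay under the background level of *ADGRL3* in either library. The ratio in cells rests on which RG-like cluster is taken, with 1.21 of *ADGRL3* in cluster 3 and 0.318 in cluster 8 beside 0.915 in neuron-like cells, and its log2 ranged from -0.88 to 1.18 over other settings. *TENM3* was at a ratio of 0.454 (0.422 to 0.487) in nuclei and 1.01 (0.973 to 1.05) in cells, and the value in nuclei stayed at 2-fold lower in 7 of 16 other settings (log2 ratio -1.38 to -0.61). The 7 include settings that leave a ratio unchanged by design. *TENM4* was lower in neuron-like cells in 15 of 15 wells (6.72, 10.1 and 16.5 beside 11.2, 17.8 and 43.0), with a ratio of 0.454 (0.447 to 0.461), but in nuclei it was higher in 6 of 12 wells and lower in 6, with a ratio of 1.09 (1.07 to 1.11). This *TENM4* comparison moved with the settings. Its log2 ratio in cells was -1.14 as given and ranged from -2.08 to 0.13 over 16 other settings, and in nuclei from -0.98 to 0.15. In cells 6 of the settings kept it at 2-fold lower, among them settings that leave a ratio unchanged by design. Each library had a second cluster with 7 of 10 excitatory neuron markers, unnamed because a marker of another class was among its leading genes. In the cells the named cluster was led by *GRIK3* and *OPCML* and had 10.7 of *TENM4*, while the unnamed one, with *UNC5A*, *SEZ6* and *PRDM8* among its leading genes, had 25.9. In the nuclei it was the named cluster that had *UNC5A*, *SEZ6* and *PRDM8* among its leading genes, with 29.8, and the unnamed one that had *OPCML* and *GRIK3*, with 12.8. *TENM4* was lower in the cluster with *OPCML* and *GRIK3* among its leading genes in either library. *FLRT2* was higher there, at 2.59 beside 1.15 in cells and 8.28 beside 4.34 in nuclei. This look at the unnamed clusters was chosen after their values were seen, clusters were not matched between libraries, and their part in the ratios was not tested.

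**Figure D2:**
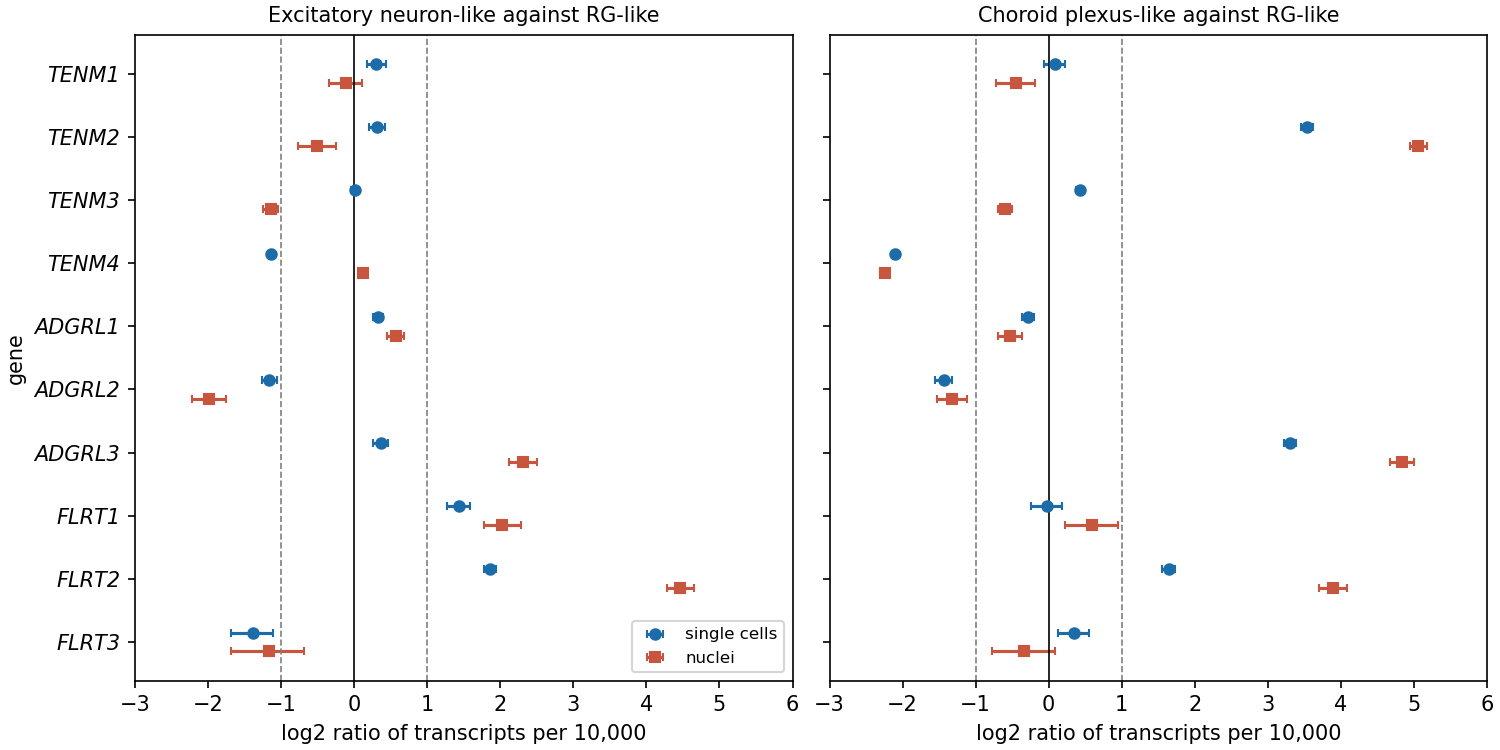
Log2 ratio of transcripts per 10000 between types for each gene (rows), neuron-like against RG-like on the left and choroid plexus-like against RG-like on the right; circles are single cells, squares nuclei, bars 95% intervals of the counting error, and dashed lines 2-fold. *FLRT1*, *FLRT2*, *FLRT3* and *ADGRL2* lie past 2-fold on the same side in both libraries on the left, and *TENM2*, *TENM4*, *ADGRL2*, *ADGRL3* and *FLRT2* on the right, whereas *TENM4* on the left lies at -1.14 in cells and 0.12 in nuclei.

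The choroid plexus shows the level of these genes outside the neuronal lineage. Against RG-like barcodes, the same 3 genes were higher in cells and in nuclei (*TENM2*, *ADGRL3* and *FLRT2*) and the same 2 lower (*TENM4* and *ADGRL2*). Of all genes compared, 13.7% were higher and 7.83% lower in cells, and 13.5% higher and 20.8% lower in nuclei. The 5 other genes stayed within 2-fold in both libraries.

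For *TENM2* the wells did not overlap. The RG-like levels of *TENM2*, *ADGRL3* and *FLRT2* were under the background level in both libraries, so these ratios stand on a denominator under background, and their intervals do not cover that. Choroid plexus-like cells had 4.12, 7.40 and 8.996 (lowest, median and highest of 11 wells) beside 0.170, 0.499 and 1.74 in RG-like cells, and the ratio was 11.6 (10.9 to 12.3). In nuclei the 7 wells ran from 11.4 over 12.5 to 18.1 beside 0.186, 0.430 and 0.538, and the ratio was 33.3 (30.7 to 36.3). *ADGRL3* did not overlap either, with 1.98, 7.85 and 10.5 beside 0.0614, 0.371 and 1.75 in cells and a ratio of 9.87 (9.36 to 10.4). In nuclei it had 2.85, 6.05 and 14.9 beside 0, 0.229 and 0.815 and a ratio of 28.5 (25.5 to 31.9). The sizes of these ratios moved with the settings: the log2 ratio of *TENM2* ran from 2.37 to 3.98 in cells and 3.85 to 8.10 in nuclei, and that of *ADGRL3* from 1.81 to 4.31 and 2.89 to 5.10. All wells with both types had higher *TENM2* and *ADGRL3* in choroid plexus-like barcodes, 9 of 9 in cells and 7 of 7 in nuclei.

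*TENM4* was lower. Its wells had 2.52, 4.37 and 5.998 in choroid plexus-like and 11.2, 17.8 and 43.0 in RG-like cells, without overlap, and the ratio was 0.232 (0.227 to 0.238). In nuclei they had 2.96, 5.38 and 10.5 beside 24.5, 27.3 and 33.5, and the ratio was 0.211 (0.203 to 0.220). *ADGRL2* was lower at ratios of 0.369 (0.340 to 0.401) and 0.399 (0.346 to 0.459), in all 9 and all 7 wells with both types. *FLRT2* was higher at ratios of 3.13 (2.94 to 3.32) and 14.8 (13.0 to 16.9), again in all 9 and all 7 wells, and the first of these rests on the same uneven RG-like clusters. One of the 2 choroid plexus-like clusters of the cells, with 133 barcodes, came to 94.0% from a single well, and in it *TENM2* was at 3.74 and *ADGRL3* at 1.72, beside 7.37 and 7.56 in the other.

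**Figure D3:**
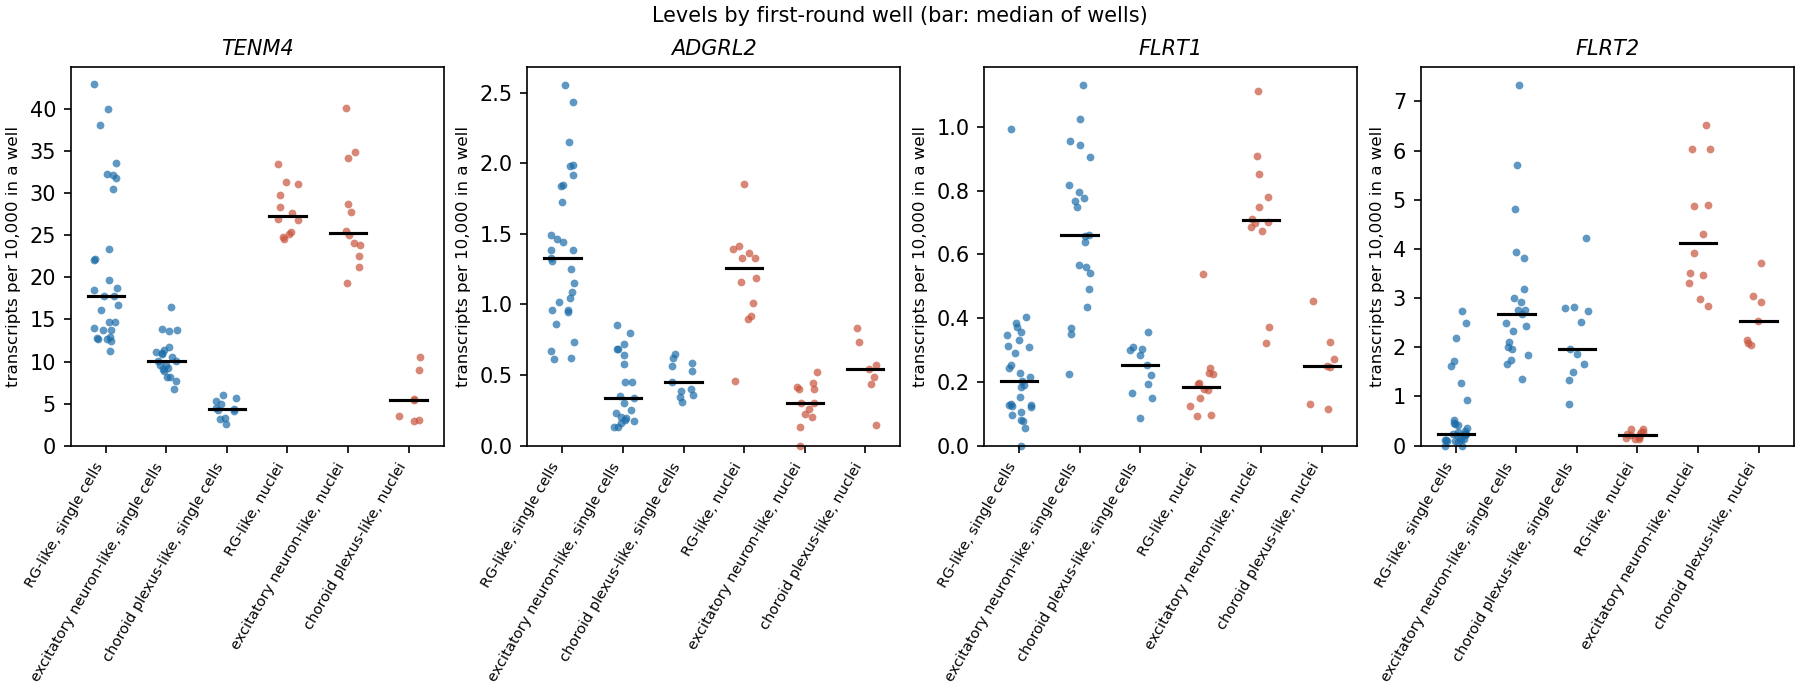
Transcripts per 10000 of *TENM4*, *ADGRL2*, *FLRT1* and *FLRT2* in each first-round well with at least 20 barcodes of the type (points; blue single cells, red nuclei), with the median of wells as a bar. In nuclei the wells of *FLRT2* in neuron-like barcodes (2.84 to 6.52) lie above all wells of RG-like barcodes (0.142 to 0.343), and wells of *TENM4* in choroid plexus-like barcodes lie under those of RG-like barcodes in both libraries.

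Over clusters, *TENM2* and *ADGRL3* went together. The Pearson r of their log2 levels was 0.74 over the 24 clusters of the cells and 0.85 over the 19 of the nuclei, and that of *TENM2* with *TENM4* was -0.57 and -0.74. Clusters of a library share its depth and background RNA, so these values are a description. The highest levels of *ADGRL3* in the nuclei were in unnamed clusters: cluster 10, with the Cajal-Retzius markers *RELN*, *EBF2* and *EBF3* but *GAD1* among its leading genes, had 15.6 of *ADGRL3*, 13.5 of *TENM2* and 3.44 of *TENM1*, and cluster 9, led by *PAX3* and *ZIC1*, had 12.5, 9.67 and 0.712. In the cells cluster 15, with 31 barcodes led by *TPH1* and 58.1% from 1 well, had the highest *TENM3* level (13.9) and the lowest *TENM4* level (1.78) of all clusters. The highest *ADGRL3* level of the cells (11.2) was in cluster 23, whose 33 barcodes all came from 1 well. Not every cluster followed the pair: cluster 21 of the cells, with 90 barcodes of which 97.8% came from 1 well, had 5.60 of *ADGRL3* and 0.1999 of *TENM2*.

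**Figure D4:**
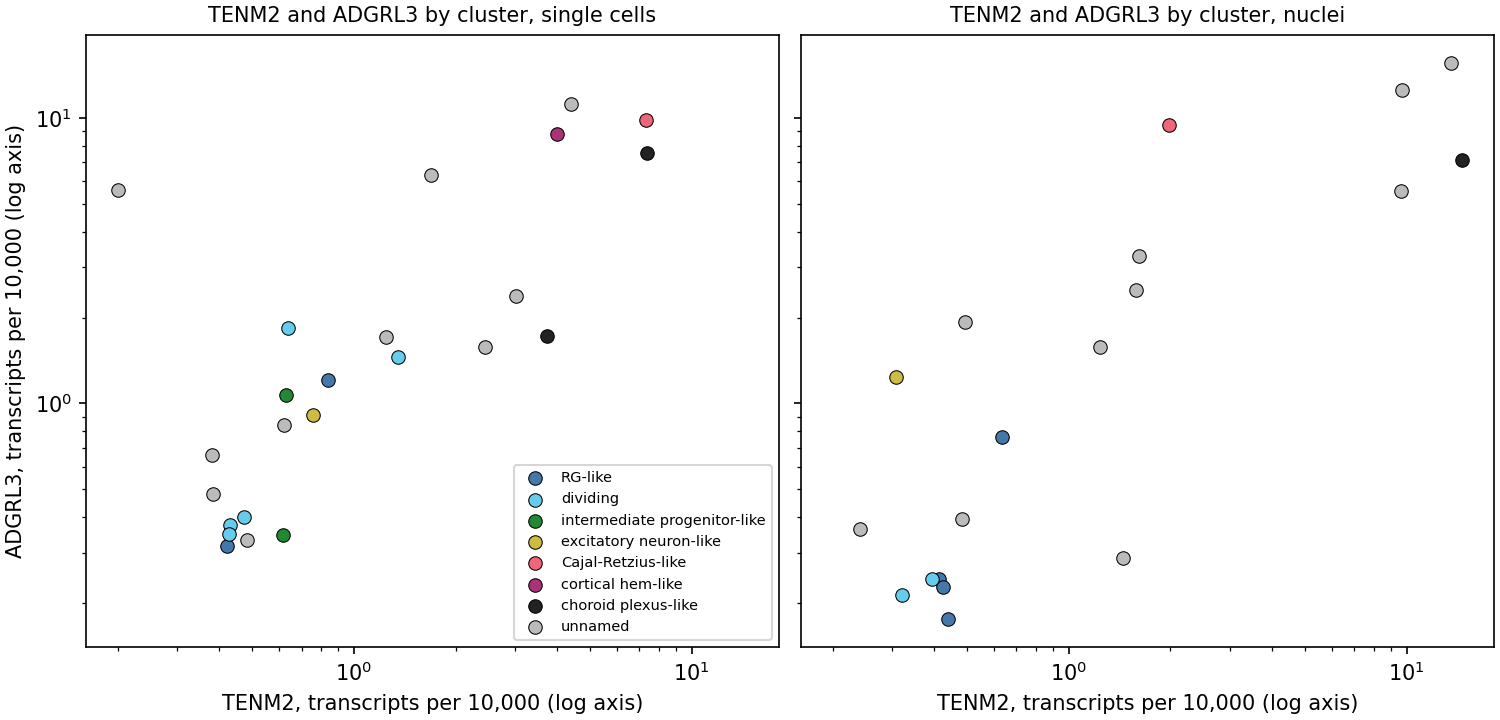
*TENM2* (horizontal) against *ADGRL3* (vertical) in transcripts per 10000, both on log axes, with 1 point per cluster colored by type, single cells on the left (24 clusters) and nuclei on the right (19). Cajal-Retzius-like, hem-like and choroid plexus-like clusters lie mostly at the upper right and RG-like and dividing clusters at the lower left, with r of 0.74 and 0.85.

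By the pattern over the 24 clusters of the cells, the genes most like each member were named among 16222 genes with at least 500 counts. Most like *TENM2* were *ERBB4*, a neuregulin receptor (r 0.93), *ABTB3* (0.92) and *LGR4*, an R-spondin receptor (0.91). Most like *ADGRL3* were *ABLIM1* (0.87), *RBMS1* (0.86) and *MFAP3* (0.86). Most like *TENM4* were *PLCB1*, a phospholipase C (0.93), *NFIB-AS1* (0.93) and *EMX1*, a transcription factor of the dorsal telencephalon (0.90). Most like *FLRT2* were *OSBPL10* (0.85), *LRRTM4* (0.85), a synaptic leucine-rich protein, and *ARHGAP20* (0.85). Most like *ADGRL2* were *EPM2A* (0.92), *MIRLET7BHG* (0.90) and *AMOTL1* (0.90). The first of the others were *LINC01829* for *TENM1* (0.86), *CNTN4* for *TENM3* (0.90), *PLPPR3* for *ADGRL1* (0.89), *FAM234B* for *FLRT1* (0.92) and *SMDT1* for *FLRT3* (0.76). With so many genes and 24 clusters, high values of r are common.

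Other genes of the pathway were 15 partners: the UNC5 receptors, *GPC3*, *ROBO1* and *FGFR1*, which bind FLRT or UNC5 proteins or act with them, *NRXN2*, *NRXN3* and *CNTN6*, other surface proteins, the SHANK scaffolds, *DAG1* and *ADGRL4*. In neuron-like against RG-like cells 3 of 15 were higher and 3 lower, beside 6.36% and 6.78% of all genes compared. In the nuclei, where *CNTN6* and *ADGRL4* had under 50 counts, 3 of 13 were higher and 5 lower, beside 8.9% and 20% of all genes. *UNC5A* was higher in neuron-like barcodes of both libraries, at 1.01 beside 0.296 in cells and 1.88 beside 0.0150 in nuclei. *SHANK1*, a postsynaptic scaffold, was at 1.25 beside 0.594 in cells and 2.01 beside 0.345 in nuclei. Lower in neuron-like barcodes of both were *UNC5C*, *GPC3* and *FGFR1*; *FGFR1* was at 0.660 beside 2.16 in cells and 0.159 beside 2.26 in nuclei.

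In choroid plexus-like against RG-like barcodes, 4 of 15 partners were higher and 1 lower in cells, and 4 of 13 higher and 1 lower in nuclei. Of all genes compared, 13.7% were higher and 7.83% lower in cells, and 13.5% and 20.8% in nuclei. *UNC5D* was the one partner higher in both, at 5.61 beside 0.905 in cells and 11.4 beside 1.07 in nuclei. *UNC5C* differed between libraries, at 0.265 beside 0.753 in cells and 0.345 beside 0.0802 in nuclei.

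Whether ligand and receptor occurred in the same barcode was read after each barcode had been thinned to 1000 transcripts. A teneurin was found in 80.8% of cells (80.3 to 81.4, exact binomial interval) and 87.5% of nuclei, a latrophilin in 31.3% and 32.8%, an FLRT in 13.8% and 15.2%, and all 3 families in 3.76% and 4.68%. In 2000 draws of 1000 transcripts from background RNA the same shares were 89.0%, 37.2%, 15.5% and 5.55% in cells and 95%, 38.7%, 18.5% and 6.25% in nuclei. Over all barcodes the shares did not exceed those of the draws. Background RNA comes from the same cells, so these shares do not say whether families occur in the same cell. Without thinning the 3 families were found together in 27.9% of cells and 26.8% of nuclei, at median depths of 2615 and 3890 transcripts.

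Some types stood above the background draws. A latrophilin was found in 66.7% (58.5 to 74.1) of Cajal-Retzius-like, 57.0% (52.6 to 61.3) of hem-like and 50.7% (47.8 to 53.6) of choroid plexus-like cells, and in 60% (49.98 to 69.4) of Cajal-Retzius-like nuclei. In choroid plexus-like nuclei it was 43.1% (38.1 to 48.2), an interval that holds the share of the draws. An FLRT was found in 29.0% (26.5 to 31.6) of neuron-like and 23.6% (21.2 to 26.2) of choroid plexus-like cells, and in 33.0% (30.3 to 35.7) and 25.8% (21.5 to 30.5) of such nuclei, beside 10.0% of RG-like cells and 5.98% of RG-like nuclei. A teneurin and a latrophilin were found together in 56.0% (47.7 to 64.1) of Cajal-Retzius-like and 45.9% (41.6 to 50.3) of hem-like cells, beside 33.3% of the draws. In choroid plexus-like nuclei this share was 35.0%, under the 36.9% of the draws. All 3 families together were found in 9.58% (7.95 to 11.4) of choroid plexus-like cells and 10.97% (8.02 to 14.5) of such nuclei. Hem-like cells had 9.30% (6.94 to 12.1), within the interval of choroid plexus-like cells. A joint share rises with the single shares of the type, and whether any went beyond them was not tested.

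**Figure D5:**
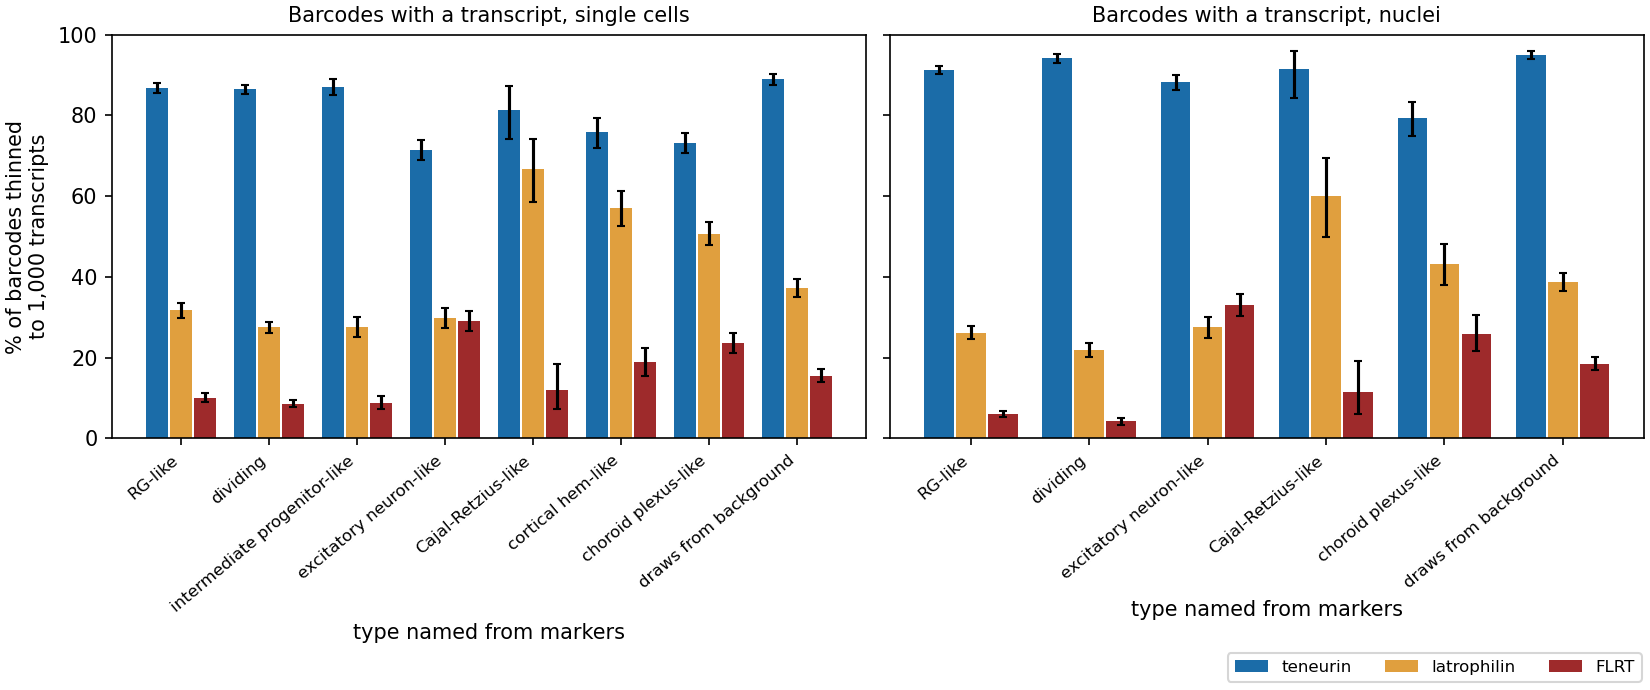
Percent of barcodes with at least 1 transcript of a teneurin, a latrophilin or an FLRT gene after thinning to 1000 transcripts, by type and in draws from background RNA (last group), with exact binomial 95% intervals. Teneurin shares lie under the draws (89.0% in cells, 95% in nuclei), latrophilin shares above them in Cajal-Retzius-like, hem-like and choroid plexus-like cells, and FLRT shares above them in neuron-like and choroid plexus-like barcodes.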

How the data were processed

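Brain organoids of the H9 line were profiled by split-seq (Evercode kits) as 1 library of single cells and 1 of nuclei. The authors demultiplexed the reads into 8 and 2 sub-libraries and ran the Parse Biosciences pipeline on GRCh38. The deposited values are raw counts (transcripts of each gene under each barcode), unfiltered and without normalization. Strand use and the treatment of introns are not given in the sources used here. Every barcode carried 1 sample name per library, so that conditions could not be compared and no p-value is given.

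Barcodes needed over 500 genes, over 1000 transcripts and a mitochondrial share of up to 20% (median 2615 and 3890 transcripts). A ratio of genes to transcripts under 0.9 was asked for only in the cells, in the alternative with more than 700 transcripts. Clusters were built with scanpy 1.11.5 on 2000 variable genes without the 10 members and 16 partners (30 principal components, 15 neighbors, Leiden resolution 1) and named by at least 3 markers at 1.5 times the other barcodes and found in 25% of the cluster. Counts were summed per type and scaled to 10000. A gene with at least 50 counts was called at 2-fold. Intervals (Poisson, exact binomial) cover counting error only; a count of 0 allows up to 3 counts. Scrublet marked 0 barcodes in either library, so doublets were kept, and leaving out the 1009 and 427 highest scores was an alternative. Background RNA was taken from barcodes with 10 to 100 transcripts, summed. Genes in the text are the 10 members, the partners (1 listed partner and the telencephalon marker list are not reported here), and the 3 genes with the highest Pearson r of log2(transcripts per 10000 + 0.1) over clusters. Identifiers matched GENCODE release 44 for 62625 of 62704 genes, the 10 members among them; promoter windows are from RefSeq and matched 9 of 10 members (not *ADGRL1*). The members, markers and lists were chosen with earlier results of these data known. The steps were tested on simulated data. Clustering used leidenalg 0.10.2, intervals scipy 1.17.1 and tables pandas 2.3.3.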

Additional observations from a re-analysis of the deposited data

Results flagged for a closer look

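Of the 10 genes, 3 went in opposite directions in cells and nuclei, with counting intervals on either side of no difference. In neuron-like against RG-like barcodes the log2 ratio of *TENM2* was 0.31 in cells and -0.51 in nuclei, at levels under background in both libraries. That of *TENM4* was -1.14 in cells and 0.12 in nuclei. In choroid plexus-like against RG-like barcodes the log2 ratio of *TENM3* was 0.43 in cells and -0.60 in nuclei. None of the 3 signs was stable within a library. Over other settings the log2 ratio of *TENM2* ran from -0.79 to 0.77 in cells and -0.62 to 1.37 in nuclei. That of *TENM3* ran from -0.38 to 0.96 and -0.69 to 0.24, and that of *TENM4* from -2.08 to 0.13 and -0.98 to 0.15. Each library is 1 sample, so these differences were not tested. By the methods, cells and nuclei also differ in days and conditions, whereas the label of the nuclei names control, dissociated and embedded treatments. The libraries further differ in background RNA and in the leading genes of the named neuron cluster. These differences cannot be told apart here.

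Barcodes with over 20% mitochondrial transcripts were outside the comparisons. The 10 genes together had 16.2 transcripts per 10000 in 95 such barcodes of the cells and 14.7 in 28 of the nuclei, from 1089 and 85 counts, and are given because these barcodes were left out, not as a test; *FLRT3* had 0 counts in those nuclei. Beside the kept cells, *TENM2* was higher in those cells (6.23 beside 1.56) and *TENM4* lower (3.49 beside 16.6), while in the nuclei both were lower (*TENM2* 1.90 beside 3.11, *TENM4* 5.69 beside 23.5).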

How the results depend on the processing

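No paired analysis was possible because each library is 1 sample, and no replicate could be left out. Over 16 alternatives, 567 of 630 values of the members kept their sign and 327 stayed within the counting interval of the value given. These tallies, and those of single genes over the settings, include values that could not move. A call at 1.5-fold and no minimum count leave every ratio as it is. Leaving out clusters mostly of 1 well changed only the choroid plexus-like against RG-like comparison of the cells. Of the values at 2-fold or more, 2 changed sign: the log2 ratio of *TENM4*, neuron-like against RG-like cells, was 0.13 at Leiden resolution 0.5 and 0.0558 with types set from markers per barcode. The other sign changes were of genes within 2-fold. Of the 3 genes lower in neuron-like cells, 1 was left with more than 700 transcripts (*FLRT3*), with more than 5000, with the highest doublet scores out, at resolution 0.5 and with types from markers (*ADGRL2* each), and 0 at resolution 2. With background RNA subtracted, 4 rather than 2 were counted as higher there, but the 2 added (*TENM2* and *ADGRL3*) are set against an RG-like level that the subtraction takes to 0 and have no ratio. Of the 3 lower in neuron-like nuclei, 1 was left (*ADGRL2*) with clusters led by another class included, a setting added after seeing the data, in which *TENM2* turned from -0.51 to 1.17 on the log2 scale and was counted as higher. Of the 2 lower in choroid plexus-like nuclei, 1 was left above 5000 transcripts (*TENM4*). The cause was not tested. The share of all genes counted as higher or lower is given for the main settings only. The counts under other settings therefore do not show whether calls changed for the members alone or for all genes. *TENM2*, *ADGRL3* and *FLRT2* in choroid plexus-like barcodes stayed at 2-fold higher in both libraries under every alternative that gave a value. Shares moved with depth: thinned to 2000 transcripts and unthinned, a teneurin was found in 93.2% and 94.5% of cells and 96.0% and 97.3% of nuclei, a latrophilin in 51.2% and 63.0% and in 49.6% and 67.1%, an FLRT in 22.4% and 36.7% and in 24.8% and 35.1%, and all 3 in 11.02% and 27.9% and in 12.5% and 26.8%. Depth limits genes such as *FLRT3*, with 40 counts in neuron-like nuclei. Leaving out barcodes over 20000 transcripts and clusters mostly of 1 well were also added after seeing the data.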
